A study of Mus musculus with 6 samples.

Results

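Marker genes of primitive and definitive endoderm were examined, 10 in all: Gata4, Gata6, Sox7, Sox17, Foxa2, Dab2, Hnf4a, Lama1, Col4a1 and Afp. They were taken by gene name from the array annotation, with every probe that carries one of these names. This gave 13 probes among 39429 gene probes on the array, which carry 30165 gene names. The samples were mouse embryonic stem (ES) cells of 2 genotypes, wild type and Zscan5b knockout, with 3 arrays each. Zscan5b belongs to the SCAN family of zinc finger genes, and the comparison asks which transcripts differ when it is missing. The labels call the arrays of a genotype biological replicates, and they do not say where the deletion lies or whether the knockout arrays come from separate clones or cultures, so p-values measure only the spread between these arrays. All cells of both groups were cultured with leukemia inhibitory factor (LIF) at 1000 IU per ml, which keeps ES cells undifferentiated. They grew on mouse embryonic fibroblasts whose division had been stopped with mitomycin C (10 ug per ml), so RNA of those feeder cells can be in every sample.

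Primitive endoderm is the extraembryonic layer that separates from the pluripotent epiblast in the late blastocyst and gives rise to visceral and parietal endoderm of the yolk sacs. Fibroblast growth factor signalling and Gata6 drive the choice of this fate, and Nanog opposes it. Gata4, Sox17 and Sox7 follow Gata6, and matrix proteins and secreted proteins come on as the layer matures. Definitive endoderm arises later, at gastrulation, and shares Sox17 and Foxa2 with it. ES cell cultures hold few cells of either kind, and in bulk RNA fewer cells of a type cannot be told apart from less RNA per cell.

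GATA4 and GATA6 bind DNA through a short motif that holds the letters GATA, and Dab2 is a known target of GATA factors in endoderm. RefSeq promoter windows (GRCm38.p6) were searched for 5 of the 10 genes: Foxa2, Hnf4a, Dab2, Col4a1 and Afp. Gata4, Gata6, Sox7, Sox17 and Lama1 were not searched, so the counts below do not cover them. The 250 bases before each start were searched on both strands for the GATA motif spelled AGATAA or with a last G as AGATAG, and for the spelling with a first T as TGATAA or, again with a last G, as TGATAG. Of the 9 windows of these genes 3 held a match, against 26.5% of all 32851 windows. The forkhead motif of the FOXA proteins, searched as TGTTTAC and TATTTAC, was in 0 of the 9 windows, against 5.76% of all. The windows of an Hnf4a start and a Dab2 start with a match are shown because these genes had opposite signs in the knockout arrays, with the match in capitals. They were picked with these signs known, and the groups overlapped for Hnf4a. Whether a match goes with the sign of a difference was not tested.
Hnf4a, chr2:163506607-163506856, plus strand: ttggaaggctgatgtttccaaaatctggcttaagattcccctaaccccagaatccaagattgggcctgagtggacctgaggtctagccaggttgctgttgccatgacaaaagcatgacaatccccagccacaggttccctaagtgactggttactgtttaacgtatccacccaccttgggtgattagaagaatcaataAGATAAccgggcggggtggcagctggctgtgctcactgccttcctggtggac
Dab2, chr15:6299539-6299788, plus strand: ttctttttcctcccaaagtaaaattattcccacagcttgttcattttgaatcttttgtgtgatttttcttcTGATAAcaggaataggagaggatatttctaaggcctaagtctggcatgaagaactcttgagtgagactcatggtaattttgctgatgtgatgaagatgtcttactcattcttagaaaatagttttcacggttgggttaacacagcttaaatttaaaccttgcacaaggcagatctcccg
The Hnf4a match began 52 bases before the start and the Dab2 match 179 bases before it. The remaining match, AGATAA, lay 183 bases before 1 of the 3 Foxa2 starts. A match describes the letters in a window and does not show binding.

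Across the endoderm transcription factors, Gata4, Sox17, Foxa2 and Hnf4a read higher on average in the knockout arrays, by 0.83 to 1.58 on the log2 scale. Sox7 read lower (-1.25), and Gata6 read 0.33 higher with overlapping groups. Outside the factors, the endocytic adaptor Dab2 read lower (-1.22), the matrix genes Lama1 and Col4a1 had log2 differences of -0.02 and 0.04, and Afp was not well above background. With all 6 arrays, 0 of the 10 tested marker probes passed the limma test at an adjusted p of 0.05, against 0.465% of all 26649 probes tested (124 probes, 0.124% higher and 0.341% lower in the knockout). The unadjusted p was below 0.05 for 5 of 10, against 21.9% of all. The groups did not overlap for 5 of 10, against 29.1% of all, with 3 higher in the knockout (13.7% of all) and 2 lower (15.4% of all). Of the 13 probes, 10 entered the test because they were well above background on at least 3 arrays, and 8 were so on all 6. A dim probe can pass this filter through its brighter group, so these shares are descriptions of the probes that passed.

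**Figure D1:**
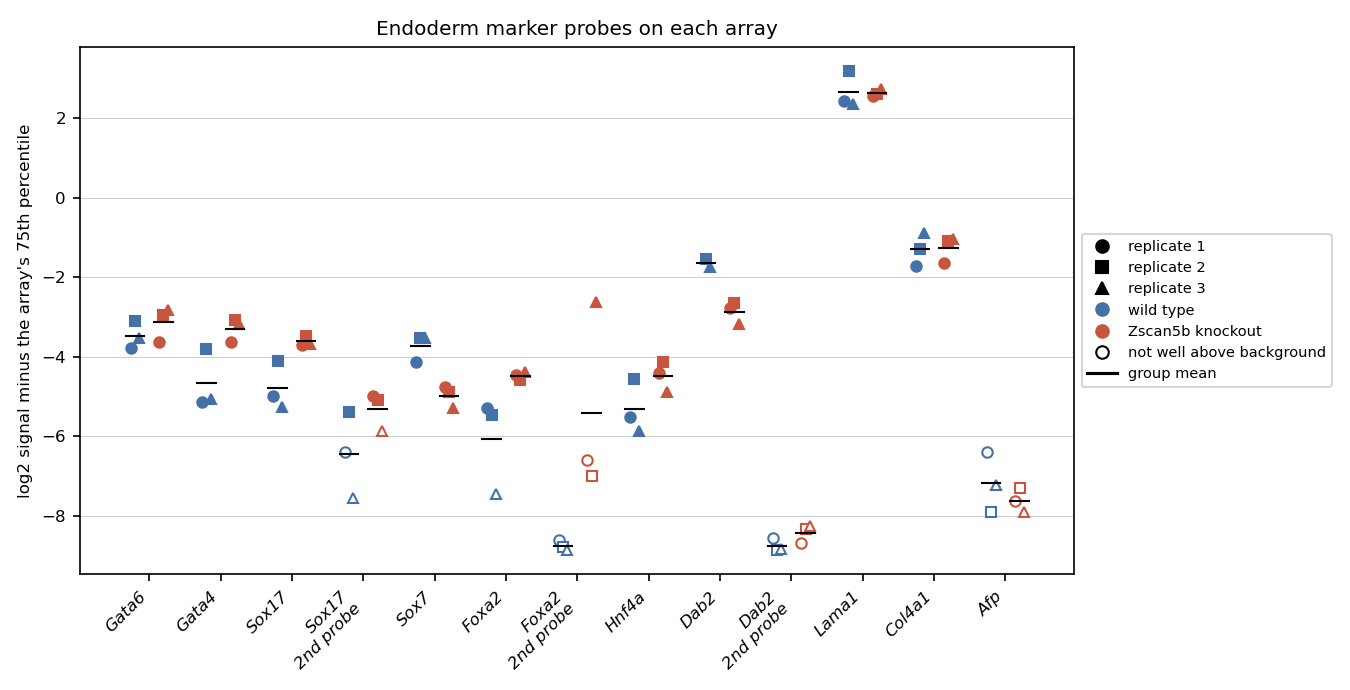
Log2 signal minus the 75th percentile of each array (y axis) for the 13 probes (x axis), with wild type in blue and Zscan5b knockout in red; marker shape gives the replicate, open markers are arrays where the probe was not well above background, and bars are group means. Gata4 and both Sox17 probes sit higher in red on average, Sox7 and the brighter Dab2 probe sit lower, and the red and blue means of Lama1, and of Col4a1, nearly coincide.

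Values are log2 signals relative to the 75th percentile of signal on the same array, and differences are knockout minus wild type. Each genotype lay on its own slide with its own scan, so slide and genotype cannot be told apart in any result here. Arrays had 25371 to 27754 probes well above background and a 75th percentile of 852 to 1028 signal units. The Zscan5b probe gave wild type values of -3.66, -4.03 and -3.12 beside knockout values of -4.47, -5.17 and -5.13 (log2 fold change -1.32 ± 0.29, SE, limma adjusted p 0.107). It was well above background on all 6 arrays, knockout arrays included, and a probe outside the deleted part would not check the genotype. The labelled cell type was checked with 10 ES cell markers, all well above background on all 6 arrays, among them Pou5f1 (2.00 to 2.66) and Sox2 (2.76 to 3.36). In this list 0 passed in limma, and groups did not overlap for 2 that read higher in the knockout and 1 that read lower (13.7% and 15.4% of all probes). Pou5f1 was the lower one (log2 fold change -0.47 ± 0.10, SE, limma adjusted p 0.104). Nanog was among the higher ones (0.66 ± 0.22, SE, limma adjusted p 0.175). Markers of the feeder cells varied within wild type and read lower on average in the knockout. Of 25 tested, 24 had a negative and 1 a positive difference, with a median log2 fold change of -0.93, against -0.028 over all genes. In limma 0 passed, and 5 that read lower had an unadjusted p below 0.05 (11.3% of all probes). Over 25 tested genes of 26 listed, their mean centred signal was -0.68, 1.1 and 0.97 for wild type replicates 1, 2 and 3, beside -0.68, -0.19 and -0.54 for the knockout, and their summed signal was 97.0, 186 and 162 against 96.9, 115 and 97.8 times the 75th percentile. Each of the 26 listed feeder genes was well above background on at least 1 array, so none of the defining markers was at the floor throughout. The part of the feeder cells in the results below was not tested unless values are given.

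Gata6, the earliest regulator of the primitive endoderm fate, was well above background on all 6 arrays. Its probe (mm9 chromosome 18, 11085039 to 11085097) gave wild type values of -3.77, -3.11 and -3.54 beside knockout values of -3.62, -2.96 and -2.83. The groups overlapped, since knockout replicate 1 lay below wild type replicates 2 and 3. The log2 fold change was 0.33 ± 0.27 (SE, n = 3 per group) with a 95% interval from -0.31 to 0.98 and a limma adjusted p of 0.472.

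Gata4, a partner of Gata6 in extraembryonic endoderm and also a heart regulator, gave wild type values of -5.14, -3.80 and -5.06 beside knockout values of -3.63, -3.07 and -3.19 (mm9 chromosome 14, 63817858 to 63817917). In signal units the wild type read 24.2, 61.2 and 28.0, and the lowest knockout array read 83.3. The groups did not overlap, and wild type replicate 2 lay near the knockout. The difference was 2.58-fold (log2 fold change 1.37 ± 0.38, SE, 95% interval 0.44 to 2.29). Its limma adjusted p was 0.143, above 0.05.

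Sox17 drives both primitive and definitive endoderm. Its brighter probe (mm9 chromosome 1, 4481503 to 4481562) gave wild type values of -5.0, -4.11 and -5.27 beside knockout values of -3.71, -3.47 and -3.67. The knockout arrays were tightly grouped (SD 0.13, n = 3) and all above wild type (SD 0.61), where replicate 2 was again the highest. The log2 fold change was 1.17 ± 0.30 (SE, limma adjusted p 0.127), a 2.26-fold difference with a 95% interval from 0.45 to 1.90 on the log2 scale. Its dimmer probe (4481038 to 4481097) read -6.40, -5.39 and -7.55 against -5.0, -5.08 and -5.86, but it was well above background on 1 wild type and 2 knockout arrays only. There the groups overlapped, and the fitted difference was 1.13 ± 0.55 (SE, adjusted p 0.279).

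Sox7, the related SRY-box factor of primitive and parietal endoderm that also acts in endothelium, had the opposite sign. Its probe (mm9 chromosome 14, 64569419 to 64569478) gave wild type values of -4.13, -3.52 and -3.53 beside knockout values of -4.77, -4.88 and -5.28. Every knockout array lay below every wild type array. The log2 fold change was -1.25 ± 0.22 (SE, 95% interval -1.79 to -0.72, 2.38-fold), with a limma adjusted p of 0.072. Wild type replicate 1, where the feeder markers were low, was the lowest of its group, and the part of the feeder cells in the Sox7 difference was not tested.

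Foxa2, a forkhead factor of visceral and definitive endoderm, was measured by probes that overlap by 5 bases on mm9 chromosome 2 and gave different readings. The brighter probe (147868669 to 147868728) gave wild type values of -5.29, -5.46 and -7.45 beside knockout values of -4.47, -4.59 and -4.39. It was not well above background in wild type replicate 3, which holds the low value. The groups did not overlap, and the log2 fold change was 1.58 ± 0.56 (SE, 95% interval 0.21 to 2.94, limma adjusted p 0.194). The log2 fold change without wild type replicate 3 was 0.89. The other probe (147868614 to 147868673) gave wild type values of -8.61, -8.79 and -8.86 beside knockout values of -6.60, -7.01 and -2.62, and only knockout replicate 3 was well above background. It was not tested. Averaged over its 3 knockout arrays it was at least 2.13-fold higher than the detection floor of the wild type arrays, and 1 array decides that bound.

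Hnf4a, a nuclear receptor needed for visceral endoderm function and later for liver, was a dim probe (mm9 chromosome 2, 163398548 to 163398607). It gave wild type values of -5.53, -4.55 and -5.86 beside knockout values of -4.41, -4.14 and -4.89. Wild type replicate 2 lay within the knockout values, so the groups overlapped. The log2 fold change was 0.83 ± 0.37 (SE, 95% interval -0.07 to 1.73, limma adjusted p 0.25).

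Dab2, an endocytic adaptor that positions endoderm cells at the surface and takes up cargo there, read lower on average in the knockout. Its brighter probe (mm9 chromosome 15, 6390616 to 6390675) gave -1.55 and -1.75 for wild type replicates 2 and 3, beside knockout values of -2.78, -2.65 and -3.18. The spot of wild type replicate 1 was marked as non-uniform and left out, so the wild type mean rests on 2 arrays. With them the log2 fold change was -1.22 ± 0.19 (SE, 95% interval -1.71 to -0.73, 2.33-fold) and the limma adjusted p 0.077. That spot read -1.08, above the other wild type arrays, and with it kept the log2 fold change was -1.41 (adjusted p 0.0642). Embryonic fibroblasts express Dab2 too, as background. Their part in the Dab2 difference was not tested. The other Dab2 probe, 103.5 kb away on the same chromosome (6287060 to 6287119), was not well above background on any array, with values from -8.87 to -8.26.

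Lama1, the laminin chain of the basement membranes that endoderm lays down, gave wild type values of 2.44, 3.19 and 2.36 beside knockout values of 2.56, 2.61 and 2.74 (mm9 chromosome 17, 68171924 to 68171983). The knockout values lay inside the wild type range. The log2 fold change was -0.02 ± 0.23 (SE, limma adjusted p 0.957), and the 95% interval from -0.59 to 0.54 bounds the difference. Col4a1, a type IV collagen chain of basement membranes that fibroblasts also make, gave wild type values of -1.71, -1.30 and -0.88 beside knockout values of -1.63, -1.1 and -1.05 (chromosome 8, 11199009 to 11199068). Its log2 fold change was 0.04 ± 0.26 (SE, interval -0.58 to 0.66, adjusted p 0.941). The sign of both differences changed with the scaling or with the arrays used. Col4a1 is printed in 10 spots per array, whose log2 SD within an array was 0.04 to 0.10, below the SD between arrays of a group (0.42 in wild type and 0.32 in the knockout, n = 3).

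Afp, the albumin-like protein secreted by visceral endoderm and fetal liver, was not well above background on any array. Its 10 spots per array averaged -6.41, -7.91 and -7.24 on the wild type arrays, beside -7.64, -7.31 and -7.92 for the knockout (mm9 chromosome 5, 90937781 to 90937840). Of 60 spots, 2 were well above background, both on wild type arrays. No fold is given for it.

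**Figure D2:**
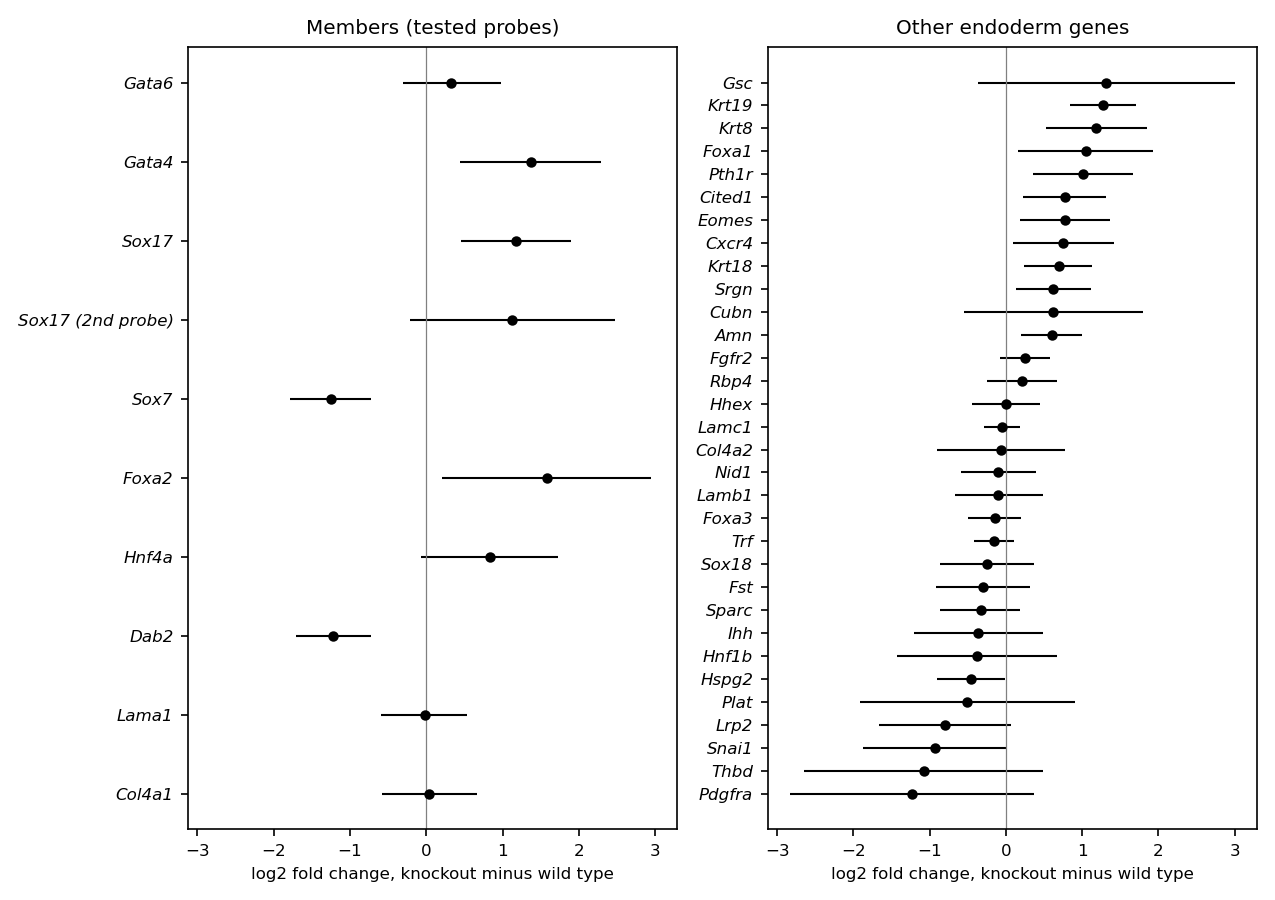
Log2 fold change, knockout minus wild type (x axis), with its 95% interval from limma (bars) for the tested marker probes (left) and 32 other endoderm genes (right). Intervals of Gata4, the brighter Sox17 probe, Foxa2, Sox7 and Dab2 do not cross 0, that of the dimmer Sox17 probe does (-0.21 to 2.47), while none of the genes passed after adjustment over all probes.

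Spread was larger among the wild type arrays. In 8 of the 10 tested marker probes the wild type SD exceeded the knockout SD, as it did in 72.8% of all tested probes. For Gata4, Sox17 and Hnf4a, wild type replicate 2 was the array closest to the knockout, and for these genes replicates 1 and 3 lay well below it. Without wild type replicate 2, 4 of 10 marker probes passed in limma, when 9.6% of all probes did. They were Gata4 (log2 fold change 1.80, adjusted p 0.0302), Sox17 (1.52, adjusted p 0.0302), Hnf4a (1.21, adjusted p 0.0476) and Sox7 (-1.15, adjusted p 0.0484). Replicate 2 was the highest wild type array for Gata4, Sox17 and Hnf4a, so their larger differences there follow from leaving it out. Without wild type replicate 1, Sox7 (-1.45, adjusted p 0.0301) and Dab2 (-1.22, adjusted p 0.0483) passed, when 2.4% of all probes did. Dab2 had no value on that array, so its own data and its log2 fold change were the same as in the main fit (limma adjusted p 0.077). Its pass there came from the other probes, through the shared variance and the adjustment. Leaving out wild type replicate 3, or any single knockout array, gave 0 marker probes. With arrays weighted by their quality, Gata4 (1.68), Sox17 (1.42) and Sox7 (-1.20) passed, with limma adjusted p of 0.0472, 0.0433 and 0.0482, when 2.41% of all probes did. Over all alternatives the adjusted p ran from 0.0302 to 0.393 for Gata4, from 0.0302 to 0.370 for Sox17, from 0.0476 to 0.513 for Hnf4a, from 0.0301 to 0.268 for Sox7 and from 0.0483 to 0.253 for Dab2.

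**Figure D3:**
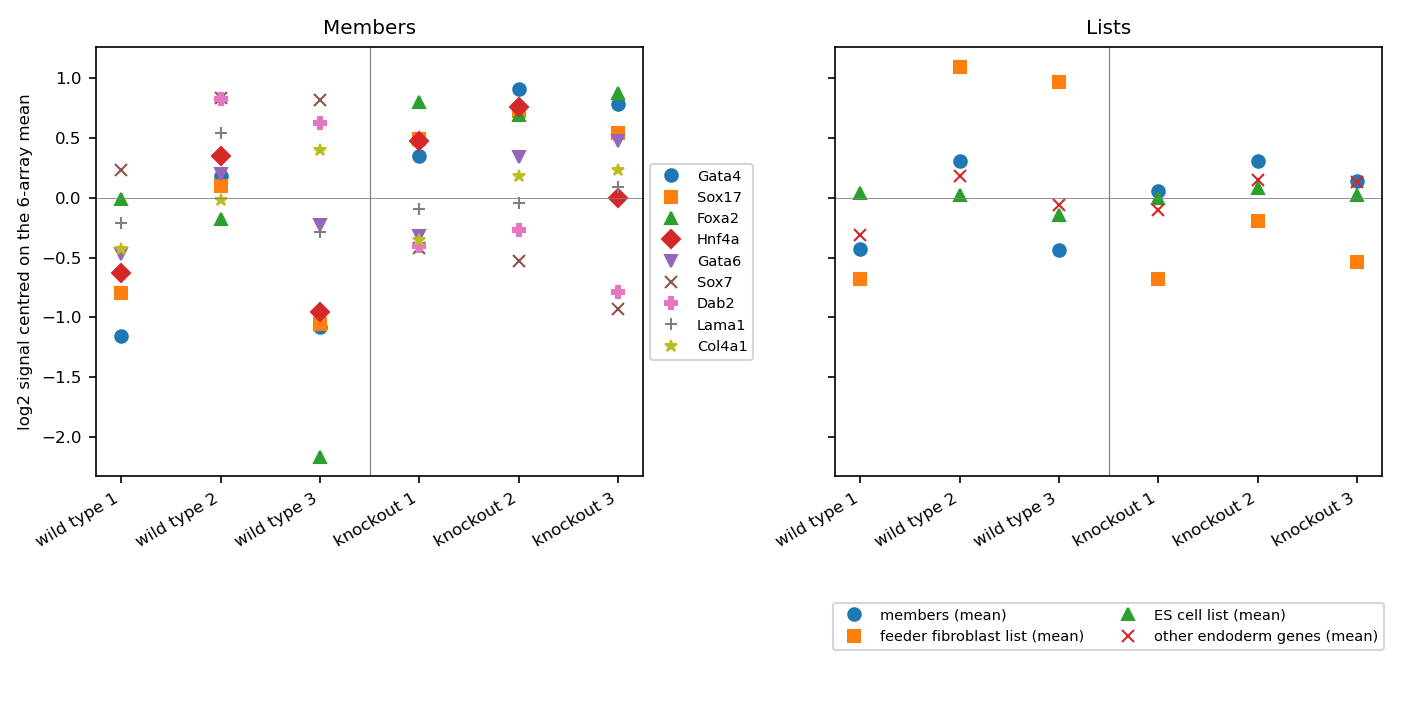
Log2 signal of each array (x axis) centred on the mean over 6 arrays (y axis) for the marker genes by their brightest tested probe (left) and for the mean of 4 gene lists (right). Gata4, Sox17 and Hnf4a are low in wild type replicates 1 and 3, whereas the feeder list is low in wild type replicate 1 (-0.68) and high in replicates 2 and 3 (1.1 and 0.97).

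The marker genes differed in how they varied over the wild type arrays. In the feeder list, wild type replicate 1 equalled knockout replicate 1 (-0.68 in both), and replicates 2 and 3 were high (1.1 and 0.97). Centred in the same way, Sox7 was at 0.23, 0.84 and 0.82 and Col4a1 at -0.43, -0.02 and 0.40 in wild type replicates 1, 2 and 3. Gata6 was at -0.47, 0.20 and -0.23. These genes were lowest in replicate 1, as the feeder list was. The Dab2 spot of replicate 1, marked as non-uniform, went the other way (-1.08 against -1.55 and -1.75, not centred). The part of the feeder cells in these patterns was not tested. Gata4, also lowest in replicate 1, was at -1.16, 0.18 and -1.08 and Sox17 at -0.80, 0.10 and -1.06, both low in replicates 1 and 3. With wild type replicate 1 alone set against the knockout, an alternative chosen after the feeder levels were seen, the log2 fold changes were 1.84 for Gata4, 1.39 for Sox17, 0.81 for Foxa2, 1.05 for Hnf4a and -0.85 for Sox7. For Dab2 it was -1.79, and that value rests wholly on the wild type spot marked as non-uniform, which is left out elsewhere. The spread there came from the knockout arrays, the lone wild type array was assumed to vary like them, and none of the 10 probes passed in limma, with the lowest adjusted p at 0.066 for the brighter Sox17 probe.

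Of 37 other genes of primitive, visceral, parietal and definitive endoderm, 32 were tested and 0 passed over all probes in limma. Of these, 10 with an unadjusted p below 0.05 read higher (10.6% of all probes) and 1 read lower (11.3% of all probes). In sign they were mixed, with 15 positive and 17 negative and a median log2 fold change of -0.06, against -0.028 over 20434 genes. The 6 genes with the smallest p all had positive differences. Krt19, a keratin of simple epithelia, gave wild type values of -1.73, -1.70 and -1.43 beside knockout values of -0.68, -0.10 and -0.26 (log2 fold change 1.27 ± 0.18, SE, adjusted p 0.0574). Krt8 and Krt18, which pair in the filaments of the first embryonic epithelia, had log2 fold changes of 1.18 ± 0.27 (adjusted p 0.112) and 0.69 ± 0.18 (adjusted p 0.137), and their groups did not overlap. Pth1r, the parathyroid hormone receptor of parietal endoderm, had a log2 fold change of 1.01 ± 0.27 (adjusted p 0.137). Amn, the partner of the endocytic receptor cubilin in visceral endoderm, had one of 0.60 ± 0.16 (adjusted p 0.140), and Cited1, a transcriptional coregulator, one of 0.77 ± 0.22 (adjusted p 0.150). Krt19 passed in limma without wild type replicate 2 (1.23, adjusted p 0.0387), with array weights (1.36, 0.0401) and with a shift to the median (1.22, 0.0478), and it was below the threshold in no other setting. Its adjusted p ran up to 0.225.

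Some matrix genes of the same list are given for their role beside Lama1 and Col4a1; they were picked with their values known, outside the naming rule. The laminin chains Lamb1 and Lamc1 had log2 fold changes of -0.10 ± 0.24 and -0.05 ± 0.10 (SE), the collagen chain Col4a2 -0.07 ± 0.35 and the linker protein Nid1 -0.10 ± 0.20, with limma adjusted p from 0.781 to 0.919. Hspg2, the proteoglycan perlecan, had a log2 fold change of -0.46 ± 0.18 with groups that did not overlap (adjusted p 0.221), and the matrix protein Sparc -0.33 ± 0.22. Pdgfra, a receptor of primitive endoderm that fibroblasts also carry, gave wild type values of -3.39, -0.89 and -1.03 beside knockout values of -3.20, -2.76 and -3.05. Its high values were in the same wild type replicates 2 and 3 as those of the feeder list. Markers of neighbouring lineages gave no call either: of 6 trophoblast and 6 mesoderm genes, 4 each were tested, 0 passed in limma, and 1 trophoblast gene, Prl3d1 (-0.47, chosen after its value was seen), had an unadjusted p below 0.05.

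**Figure D4:**
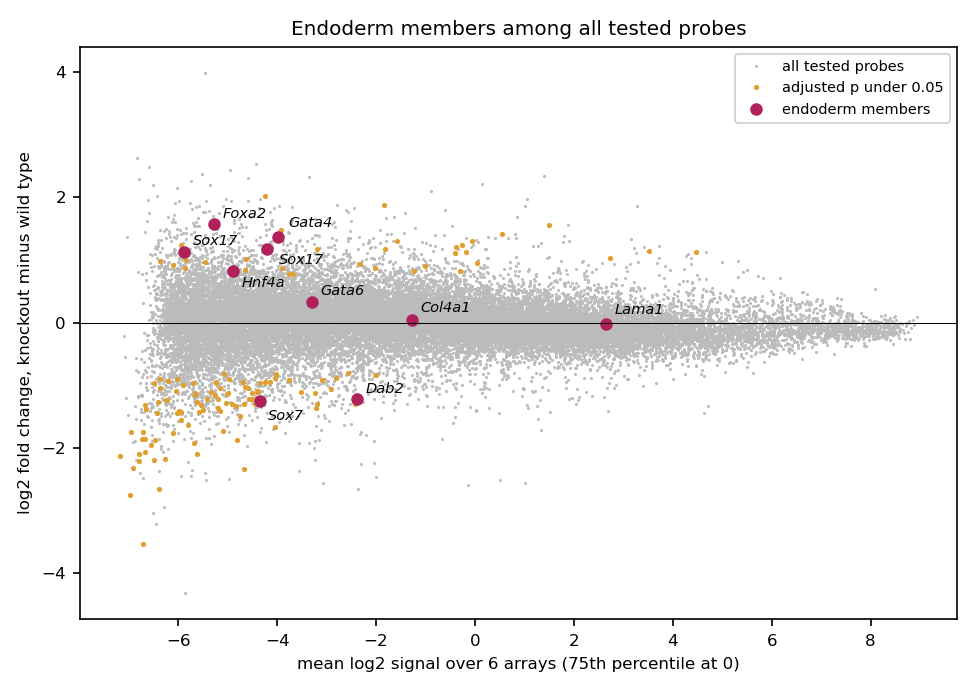
Mean log2 signal over the 6 arrays (x axis, 0 at the 75th percentile) against log2 fold change, knockout minus wild type (y axis), for all 26649 tested probes in grey, the 124 that passed in orange and the 10 tested marker probes in crimson. Sox17, Gata4, Foxa2, Hnf4a and Sox7 are dim probes, where grey points also spread widely, and Lama1 is a bright probe near 0.

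For the marker genes with the largest SD over the 6 arrays, the genes with the most similar profile were found by the root mean square difference of centred log2 values over 6 arrays, among 20388 genes. For Foxa2 (SD 1.15) they were Baiap3 (0.209), a transcript named only by its Ensembl identifier (0.242) and Ap3b2 (0.245). The low value of Foxa2 in wild type replicate 3, where its probe was not well above background, sets much of this profile, and the probes of Baiap3 and of the Ensembl transcript were well above background on 3 of 6 arrays only. For Gata4 (SD 0.90) they were Pttg1ip2 (0.144), Elf3 (0.151) and Klhl24 (0.165). For Sox17 (SD 0.75) they were Nrarp (0.070), a feedback inhibitor of Notch signalling, Abcg1 (0.084), a cholesterol exporter, and Elf3 (0.107), an epithelial ETS factor. Elf3 was on both of the last lists, and it gave wild type values of -0.99, 0.05 and -0.98 beside knockout values of 0.57, 0.85 and 0.61. It was picked for its likeness to them, so its shared pattern is no further result, and it did not pass in limma (log2 fold change 1.32 ± 0.30, SE, adjusted p 0.109).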

How the data were processed

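Cy3-labelled total RNA was hybridised to 1-colour Agilent arrays, 1 per sample. The deposited scanner output gives each spot's linear intensity, detrended and background-subtracted by Feature Extraction. Its version is 10.7.3.1 per the file headers and 10.3.1.1 in the submitters' processing notes. The authors' series table holds log2 values centred per probe and served as an alternative. Against centred scanner values of the same array its r was at least 0.999 across probes; the column medians were 0.02, -0.01 and -0.07 for wild type and -0.02, 0.02 and 0.03 for knockout replicates 1 to 3, and how it was scaled is unknown here.

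Control and outlier spots were left out, log2 processed signals were averaged per probe, and the array's own 75th percentile was taken off. Probes well above background (at least 50% of their spots) on at least 3 of 6 arrays were tested (26651, of which 2 could not be fitted). Groups were compared with limma 3.58.1 in R 4.3.3 (two-sided, Benjamini-Hochberg over all tested probes, threshold 0.05), and the files were read with the R package data.table (version 1.17.8). The test was checked on simulated data. A gene's representative is its brightest tested probe. A fold against a group with no array well above background takes that group's probe signal or the lowest detected signal of the array, whichever is greater. Non-overlap was judged over the arrays with a value. No gene probe was saturated.

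Named by rule were the 10 marker genes with all probes, Zscan5b, the 6 other endoderm genes with the smallest p, and the 3 most similar genes for each of the 3 most variable marker genes. Of the feeder and ES cell lists the list mean and up to 3 genes each could be named. Marker genes and lists were chosen with earlier results of these data known. Probe positions are mm9 from the files. Symbols were updated by RefSeq accession (26761 probes), current symbol (3814) or synonym (639), and 8215 probes kept the file's name or had none. Alternatives were normexp (offset 50), quantile and median scaling, other detection filters, a trended robust prior, array weights, the authors' table, the replicate block, gene means and leaving out each array. Kept outlier spots and wild type replicate 1 alone were added after the data were seen.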

Additional observations from a re-analysis of the deposited data

Results flagged for a closer look

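The second Foxa2 probe (A_55_P2067533), which took no part in the test, gave a signal of 146 units in knockout replicate 3, where it was well above background. It stood out because the wild type arrays read 2.18, 1.93 and 2.00 units and knockout replicates 1 and 2 read 10.6 and 7.01. The neighbouring Foxa2 probe, which shares 5 bases with it on the genome, read 46.2, 37.4 and 42.8 units in knockout replicates 1, 2 and 3, so replicate 3 was not high there.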

How the results depend on the processing

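The signs of Gata4, Gata6, Sox17, Foxa2 and Hnf4a (positive) and of Sox7 and Dab2 (negative) held in every alternative in which each was tested, from 16 to 18 of them. Many of these could not have changed a sign. The detection filters, the trended robust prior and the replicate block left Gata4 at 1.37. Where the groups do not overlap, leaving out an array cannot reverse the sign. The marker probes that passed numbered 0 with all arrays, 3 with array weights and 0 to 4 when an array was left out. In the wider endoderm list the count was 0, against 1 with a shift to the median, 1 with array weights and 0 to 5 when an array was left out, and its median of -0.06 was 0.40 with wild type replicate 1 alone. Over all probes 124 passed, against 0 under normexp, without a filter, with detection on all 6 arrays, with the trended robust prior and with the replicate block, 231 with a shift to the median, 642 with array weights, 52 with wild type replicate 1 alone, and 0 to 2557 when an array was left out (2557 without wild type replicate 2, 640 without wild type replicate 1, and 0 without any 1 of the other 4). The cause was not tested, except that the filters change which probes enter and normexp adds 50 to every signal, which shrinks the folds of dim probes (Gata4 0.65, Sox17 0.57, Foxa2 0.37, Hnf4a 0.24, Sox7 -0.53). Near 0, Lama1 turned positive with quantile scaling (0.07), array weights (0.10), wild type replicate 1 alone (0.20) and without wild type replicate 2 (0.24) or knockout replicate 1 (0.01). Col4a1 turned negative with quantile scaling (-0.02), a shift to the median (-0.02) and when wild type replicate 1 (-0.17) was left out, or knockout replicate 2 (-0.04) or 3 (-0.07). With single arrays left out Lama1 ran from -0.18 to 0.24 and Col4a1 from -0.17 to 0.25. Other scalings moved the median of all probes from -0.011 to between -0.066 and 0.003.

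The labels do not say whether equal replicate numbers mark shared handling, and the values did not settle it. Deviations of same-numbered arrays correlated at 0.16, 0.23 and -0.14 across 26594 probes, and those of other pairs at -0.32 to 0.21. The replicate block gave 0 marker probes, 0 genes of the wider list and 0 of all probes, and not every array correlated best with its own number. Low signal limits Sox17's dimmer probe, Foxa2 and Afp, which were not well above background on every array. The probes of Gata4, Hnf4a and Sox7 and the brighter Sox17 probe were so on every array, but they are dim too and low signal also limits them. Having 3 arrays a group limits all results.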
